A study of Komagataella phaffii with 18 samples.

Results

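The features described here are those that the transcript tables number from PP7435_Chr4-0001 to PP7435_Chr4-0074, the start of the chromosome 4 numbering of Komagataella phaffii. They were taken by serial number, and the range was chosen with earlier results of these data known. The tables hold 70 of these 74 serials, out of 5341 features in all. Features are called by their serial below, so that 0067 stands for PP7435_Chr4-0067. In 4 mirrored pairs (0001/0074, 0003/0072, 0004/0071 and 0005/0070), the feature at a given place from the start of the range had a partner of the same or nearly the same length at that place from its end. Their estimated counts were summed before strains or media were compared, which left 66 members.

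K. phaffii is a methylotrophic yeast of the strain background CBS2612. Polyadenylated RNA of 3 strains was sequenced during exponential growth in YPD, a rich medium, and again 24 h after those cultures were moved to acetate medium, used to switch on mating genes. The 6 groups, with 3 libraries each, were a-type, α-type and wild type in acetate and the same strains in YPD. The a-type and α-type strains are heterothallic, with the genotypes written dic1-2{delta}(a) and dic1-2{delta}(alpha), and the wild type carries no listed change. The labels do not say what the deletion removes, whether a strain is 1 clone, or whether the 3 libraries of a group came from separate cultures, so the p-values reflect only how far these samples spread, and that spread may be technical. Acetate also differed from YPD in culture time and growth phase, and these cannot be told apart. In bulk RNA, expression in fewer cells and less RNA per cell cannot be told apart either.

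As background, cells of this yeast carry both sets of mating-type genes on chromosome 4 and express a single set, because the other lies in a silenced place. Switching turns round the stretch of chromosome between the sets by recombination of inverted repeats that flank it. A sequence repeated in opposite orientation at both ends of such a stretch appears in a numbered gene list as mirrored copies. A heterothallic strain keeps its type, whereas the wild type can switch. The deposited IDs carry no gene names and 0 of 5341 matched the reference gene table, so no role is given to any feature, the mating-type genes could not be used to check the strain labels, and whether the range is the stretch that inverts was not tested.

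Library totals ran from 637339 to 765524 estimated counts in acetate and from 234044 to 309362 in YPD. On the scaled libraries used for CPM (counts per 1000000) below, a count of 3 was worth 3.72 to 5.89 CPM in acetate and 8.18 to 13.8 CPM in YPD. The spread between replicates, as edgeR's biological coefficient of variation, was 12.9% in acetate and 35.7% in YPD. Differences between strains could therefore be seen at smaller sizes in acetate. A member is called changed below where the adjusted p of edgeR's quasi-likelihood test, over 4779 features, was under 0.05.

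The mirrored structure was visible in the lengths and in the counts. Features 0001 and 0074 both had a coding length of 918 bases, 0004 and 0071 one of 330, and 0005 and 0070 one of 537. Feature 0003 had 3138 bases and 0072 had 3135. The whole table held 3 sets of features with counts above 0 that were identical in all 18 libraries, and these were 0001/0074, 0004/0071 and 0005/0070. The program kallisto divides a read that fits several transcripts among them, and equal shares are what it returns for transcripts it cannot tell apart. The other outer serials had no such partner. Feature 0002 had 678 bases against 573 for 0073, and 0006 had 3288 against 219 for 0069. Counts that were not whole occurred in 8 of the 70 members, the copies of the 4 pairs, and in 62 of all features.

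Most of the range had estimated counts above 0 in every library, for 68 to 70 of the 70 members in acetate and 67 to 70 in YPD. This was so for most of the genome, with 5232 to 5285 of 5341 features in acetate and 4978 to 5169 in YPD. Fractions of a count were included, such as 0.009 for 0003 in acetate a-type replicate 1. Per unit of length, the median member stood at 127 TPM (transcripts per 1000000) in acetate for a-type, 122 for α-type and 102 for wild type, and in YPD at 86.8 TPM for a-type, 96.3 for α-type and 93.4 for wild type. The median over all features lay between 32.2 and 45.4 TPM in the same groups. The next 70 features of the chromosome had medians of 36.5 to 53.4 TPM. Members at 100 TPM or more made up 45.7% to 55.7% of the range, against 32.7% of all features or fewer in every group. Inside the paired ends, the median stood at 104 to 145 TPM over the 6 groups for the 20 members numbered 0007 to 0027, at 101 to 161 TPM for the 20 numbered 0028 to 0048, and at 59.5 to 84.7 TPM for the 18 numbered 0049 to 0068.

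**Figure D1:**
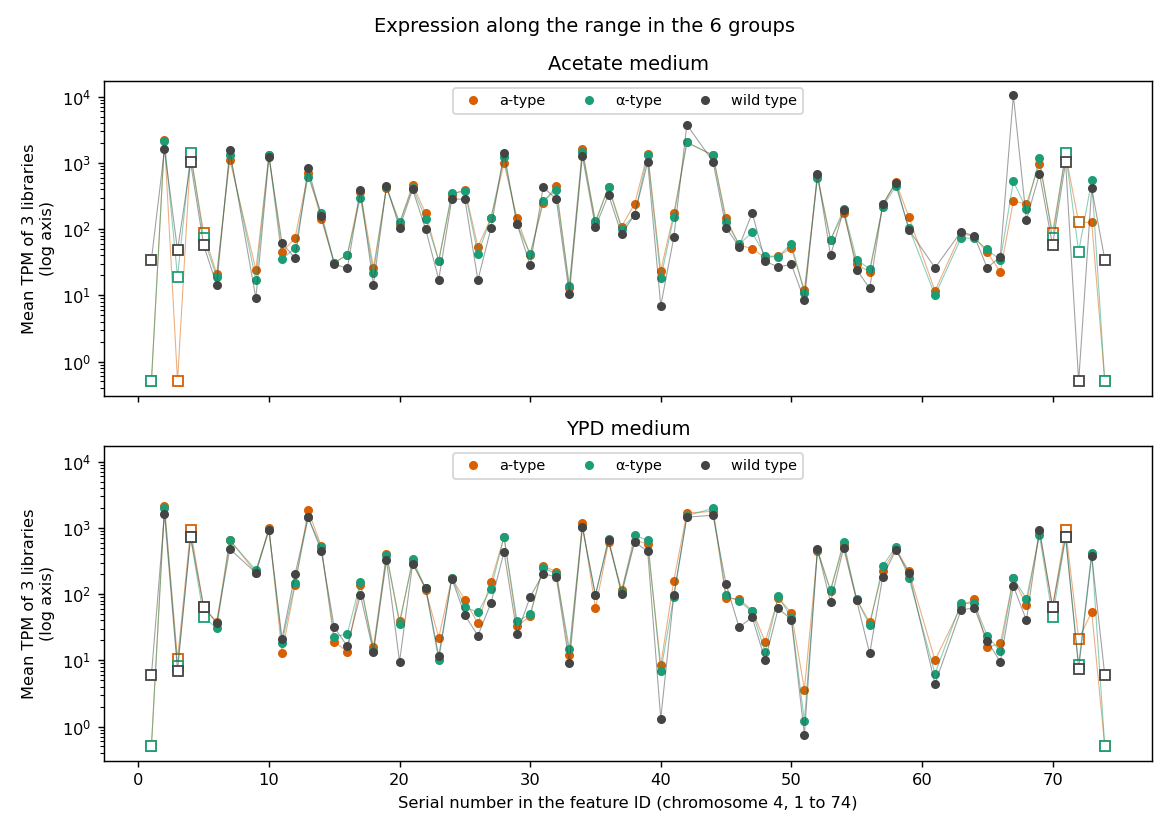
Mean TPM (logarithmic axis, 3 libraries per point) of each of the 70 members by serial number, in acetate above and YPD below, for a-type, α-type and wild type. Open squares are copies of the mirrored pairs, and values under 0.5 TPM are drawn at 0.5. Feature 0067 stands far above the other strains in acetate wild type, 0073 is low in a-type in both media, and the outermost pair is at 0 in a-type and α-type, where the α-type marks cover those of a-type.

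The range as a whole took 2.22% ± 0.0689 of all counts in a-type, 2.23% ± 0.0139 in α-type and 2.64% ± 0.0491 in wild type in acetate (SD, n = 3 each). In YPD its share was 2.27% ± 0.0116 in a-type, 2.29% ± 0.123 in α-type and 2.08% ± 0.0735 in wild type (SD, n = 3 each). The 70 members are 1.31% of all features. The higher share in acetate wild type came from 1 member. Without 0067 the shares in acetate were 2.21% in a-type, 2.21% in α-type and 2.17% in wild type.

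The members with the highest mean level over the 18 libraries were 0042 (2086 TPM), the pair 0004/0071 (2062 TPM, both copies), 0067 (1959 TPM), 0002 (1954 TPM) and 0044 (1495 TPM). Feature 0042 stood highest in acetate wild type, at 3771 TPM against 1456 to 2046 TPM in the other groups. It was the highest member in no group. The mean of 0067 came through acetate wild type, at 9730 to 11302 TPM per library against 125 to 807 TPM in all others. With pairs summed, 0004/0071 was highest in acetate a-type (2689 TPM) and acetate α-type (2819 TPM), 0067 in acetate wild type (10485 ± 788 TPM, SD, n = 3), and 0002 in all 3 YPD groups (1633 to 2143 TPM). The 5 highest members of a group, pairs summed, held 56.6% of the range's TPM in acetate wild type and 38.9% to 41.98% of it in the other groups.

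The outermost pair, 0001/0074, gave reads in wild type alone. Its summed level in acetate was 0 CPM in all 3 a-type libraries and all 3 α-type libraries, against 75.4, 89.4 and 82.5 CPM in wild type. In YPD it was again 0 CPM in the 6 a-type and α-type libraries, against 20.6, 17.2 and 4.62 CPM in wild type. Every wild-type library of both media had reads and no heterothallic library did.

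The wild-type values rest on 139 estimated counts in acetate and 12 in YPD over 3 libraries each. On unscaled library totals, the wild type stood at 66.8 CPM in acetate and 14.6 CPM in YPD over its 3 libraries. On the same totals a count of 0 over the 3 libraries of a group allows, as counting error only, in acetate up to 1.51 CPM for a-type or 1.40 CPM for α-type, and up to 3.43 CPM for a-type and 3.54 CPM for α-type in YPD. In acetate the pair was below that wild-type level at least 44.2-fold in a-type and at least 47.6-fold in α-type, with an edgeR adjusted p of 3.09e-15 for a-type and 1.8e-15 for α-type. In YPD the bounds were 4.25-fold for a-type and 4.11-fold for α-type, and neither difference passed (adjusted p = 0.694 for a-type and 0.997 for α-type, edgeR). The bounds of both media take the measured wild-type level as exact. In YPD that level rests on 6, 5 and 1 estimated counts, so the fold there could be smaller. The pair rose in wild type in acetate, with a log2 fold change of 2.46 over YPD (SE 0.52, edgeR adjusted p = 0.000964). It passed the low-count filter only through the acetate wild-type libraries. The p-values of comparisons with that group therefore add no support beyond the counts themselves. Whether the deletions or the arrangement of the strains remove the sequence of 0001/0074 was not tested.

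**Figure D2:**
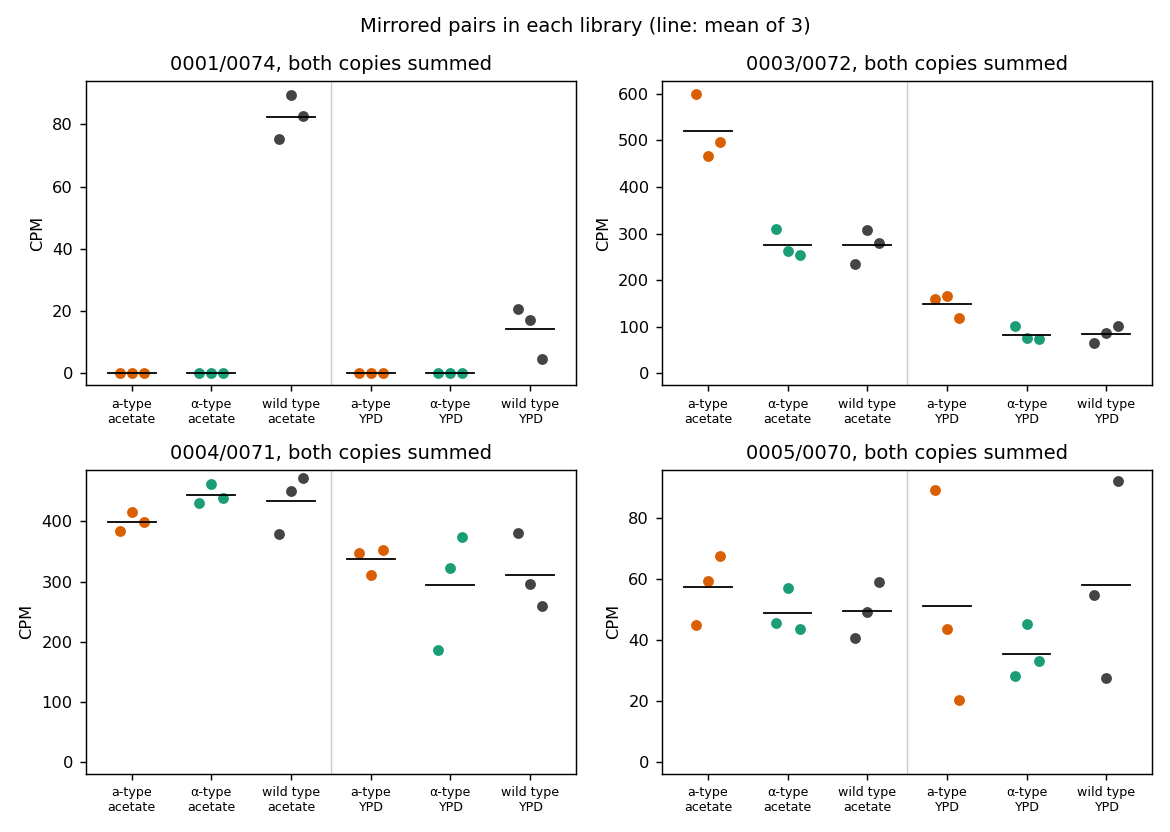
CPM of each mirrored pair, both copies summed, with 1 point per library, 3 libraries per group and a bar at the group mean. The pair 0001/0074 is above 0 in wild type alone, 0003/0072 is highest in acetate a-type, and the groups of 0004/0071 and 0005/0070 overlap for the most part.

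The next pair, 0003/0072, was higher in acetate than in YPD in every strain and, within acetate, highest in a-type. In acetate it had 601, 466 and 497 CPM for a-type, 309, 262 and 255 for α-type, and 235, 308 and 281 CPM for wild type. In YPD it had 159, 166 and 119 CPM for a-type, 101, 75.7 and 72.9 for α-type, and 65.2, 85.9 and 102 CPM for wild type. The a-type libraries lay above all libraries of the other strains in each medium, and α-type overlapped wild type in both.

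The pair rose in acetate in the 3 strains, with a log2 fold change over YPD of 1.81 in a-type (SE 0.24, edgeR adjusted p = 2.01e-06), 1.72 in α-type (SE 0.26, edgeR adjusted p = 8.09e-06) and 1.72 in wild type (SE 0.26, edgeR adjusted p = 6.9e-06). In acetate a-type was above α-type by 0.92 on the log2 scale (SE 0.14, edgeR adjusted p = 3.07e-06) and above wild type by 0.94 (SE 0.15, edgeR adjusted p = 2.24e-07). The a-type excess over α-type lost its call when all 18 libraries shared 1 estimate of the spread (0.92, edgeR adjusted p = 0.0999). The α-type minus wild-type difference in acetate was 0.01 with a 95% interval from -0.29 to 0.32. The a-type excess in YPD did not pass, at 0.81 over α-type (edgeR adjusted p = 0.999) and 0.84 over wild type (edgeR adjusted p = 0.832).

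In acetate kallisto divided this pair between its copies differently in different libraries. The acetate a-type libraries held 413, 330 and 346 estimated counts, and all but 0.009 counts or fewer in each went to 0072. The acetate wild-type libraries held 150, 169 and 143, and all but 0.009 counts or fewer in each went to 0003. In acetate α-type, replicate 1 gave 216 counts to 0072 and almost none to 0003, whereas replicate 2 gave 93.0 to 0003 and 118 to 0072, and replicate 3 gave 88.0 to 0003 and 93.0 to 0072. In YPD, 0003 received 48.6% of the pair's counts in 8 of 9 libraries and 0.019% in a-type replicate 1. The division was thus all or none, or near even, and it differed between replicates of 1 strain, so the value of a single copy is uncertain and neither copy is compared alone.

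**Figure D3:**
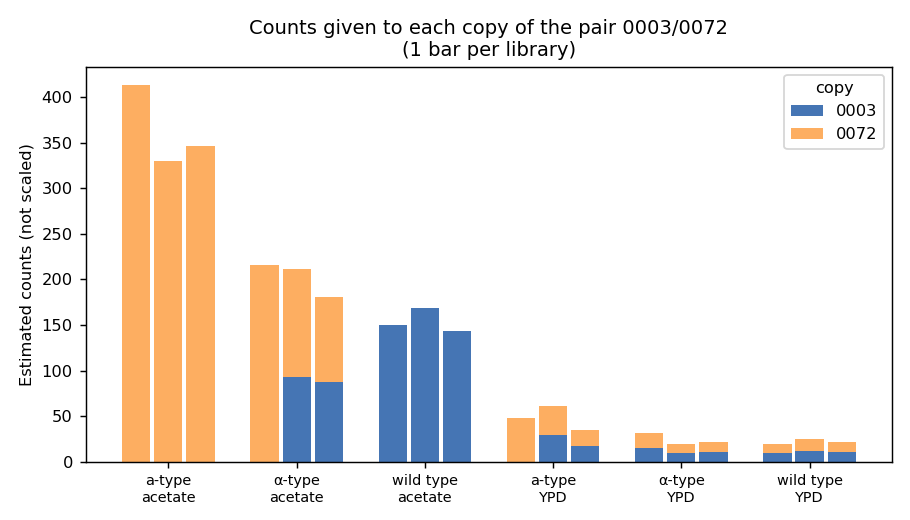
Estimated counts, not scaled for depth, that kallisto gave to 0003 and to 0072 in each library, stacked, with 1 bar per replicate in order. All counts stand on 0072 in acetate a-type and on 0003 in acetate wild type, and acetate α-type and YPD a-type hold libraries of both kinds of division.

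No difference between strains passed for either inner pair. The pair 0004/0071 had 384, 415 and 398 CPM for a-type, 430, 461 and 439 for α-type, and 378, 451 and 471 CPM for wild type in acetate. In YPD it had 347, 311 and 352 CPM for a-type, 186, 322 and 374 for α-type, and 381, 295 and 259 CPM for wild type. The strains overlapped in each medium apart from a-type and α-type in acetate, which lay close together.

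In acetate the 95% interval of the log2 difference in 0004/0071 was -0.42 to 0.12 for a-type minus α-type, -0.38 to 0.17 for a-type minus wild type, and -0.22 to 0.32 for α-type minus wild type. The α-type was higher in acetate than in YPD by 0.60 (edgeR adjusted p = 0.0433). That call was lost when the 6 α-type libraries were fitted alone (edgeR adjusted p = 0.0804), with no filter on low counts (edgeR adjusted p = 0.0586), and without YPD α-type replicate 1 or any acetate α-type replicate (edgeR adjusted p of 0.0769 to 0.376). Without YPD α-type replicate 1 the value was 0.28. The pair 0005/0070 was low, between 40.8 and 67.6 CPM in the acetate libraries and between 20.3 and 92.3 CPM in the YPD libraries, and none of its 12 comparisons passed.

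Feature 0073, which stands before the outermost copy in the numbering and has no mirrored partner of its length, was low in a-type in both media. In acetate it had 53.8, 35.3 and 53.2 CPM for a-type, 220, 234 and 172 for α-type, and 215, 186 and 208 CPM for wild type. In YPD it had 3.31, 35.4 and 27.1 CPM for a-type, 195, 148 and 232 for α-type, and 271, 117 and 203 CPM for wild type. All a-type libraries lay below all libraries of the other strains, and α-type overlapped wild type.

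In acetate 0073 in a-type was below α-type by a log2 fold change of -2.13 (SE 0.21, edgeR adjusted p = 1.02e-12) and below wild type by -2.09 (SE 0.21, edgeR adjusted p = 3.94e-13). The α-type minus wild-type difference was 0.05, with a 95% interval from -0.31 to 0.41. In YPD the value was -3.08 against α-type (SE 0.54, edgeR adjusted p = 0.0428) and -3.07 against wild type (SE 0.54, edgeR adjusted p = 0.0447). Neither YPD call was stable. The call against α-type was lost without any 1 of the 6 libraries compared (edgeR adjusted p of 0.0669 to 0.193), and the call against wild type was lost without each library except YPD wild-type replicate 2 (0.0769 to 0.304).

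The other outer features without a partner behaved differently. Feature 0002 had between 953 and 1228 CPM in the acetate libraries and between 1002 and 1409 CPM in the YPD libraries, none of its comparisons passed, and the acetate difference between a-type and α-type had a 95% interval from -0.21 to 0.25. Feature 0006 was lower in acetate than in YPD in all strains, by -1.10 in a-type (edgeR adjusted p = 0.00815), -0.91 in α-type (0.0268) and -1.38 in wild type (0.0011) on the log2 scale. Feature 0069 had between 62.8 and 170 CPM in acetate and between 92.7 and 151 CPM in YPD, and no comparison of it passed.

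Feature 0067, with a coding length of 597 bases, gave the largest change between media in the range. In acetate it had 112, 109 and 105 CPM for a-type, 174, 339 and 144 for α-type, and 5201, 6507 and 5376 CPM for wild type. In YPD it had 82.7, 81.8 and 81.3 CPM for a-type, 69.2, 64.3 and 123 for α-type, and 82.4, 65.2 and 73.9 CPM for wild type. The 3 acetate wild-type libraries stood apart from the other 15, and in YPD the strains overlapped.

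In wild type 0067 was 76.9-fold higher in acetate than in YPD (log2 fold change 6.26, SE 0.33, edgeR adjusted p = 2.39e-13). In acetate a-type stood 51.9-fold below wild type (log2 fold change -5.70, SE 0.17, edgeR adjusted p = 2.62e-41) and α-type 25.6-fold below wild type (log2 fold change -4.68, SE 0.16, edgeR adjusted p = 4.9e-38). It rose in acetate in α-type by 1.35 (SE 0.29, edgeR adjusted p = 0.000612), and its value in a-type was 0.41 (SE 0.30, edgeR adjusted p = 0.292). The response to acetate was lower than in wild type by -5.86 in a-type (SE 0.43, edgeR adjusted p = 7.77e-10) and by -4.91 in α-type (SE 0.43, edgeR adjusted p = 2.3e-08). In acetate a-type was also below α-type, by -1.02 (SE 0.17, edgeR adjusted p = 3.41e-05), but that call rested on α-type replicate 2, without which it was -0.55 (edgeR adjusted p = 0.136). It was also lost with DESeq2 (adjusted p = 0.122) and with all 18 libraries in 1 edgeR fit (adjusted p = 0.188).

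**Figure D4:**
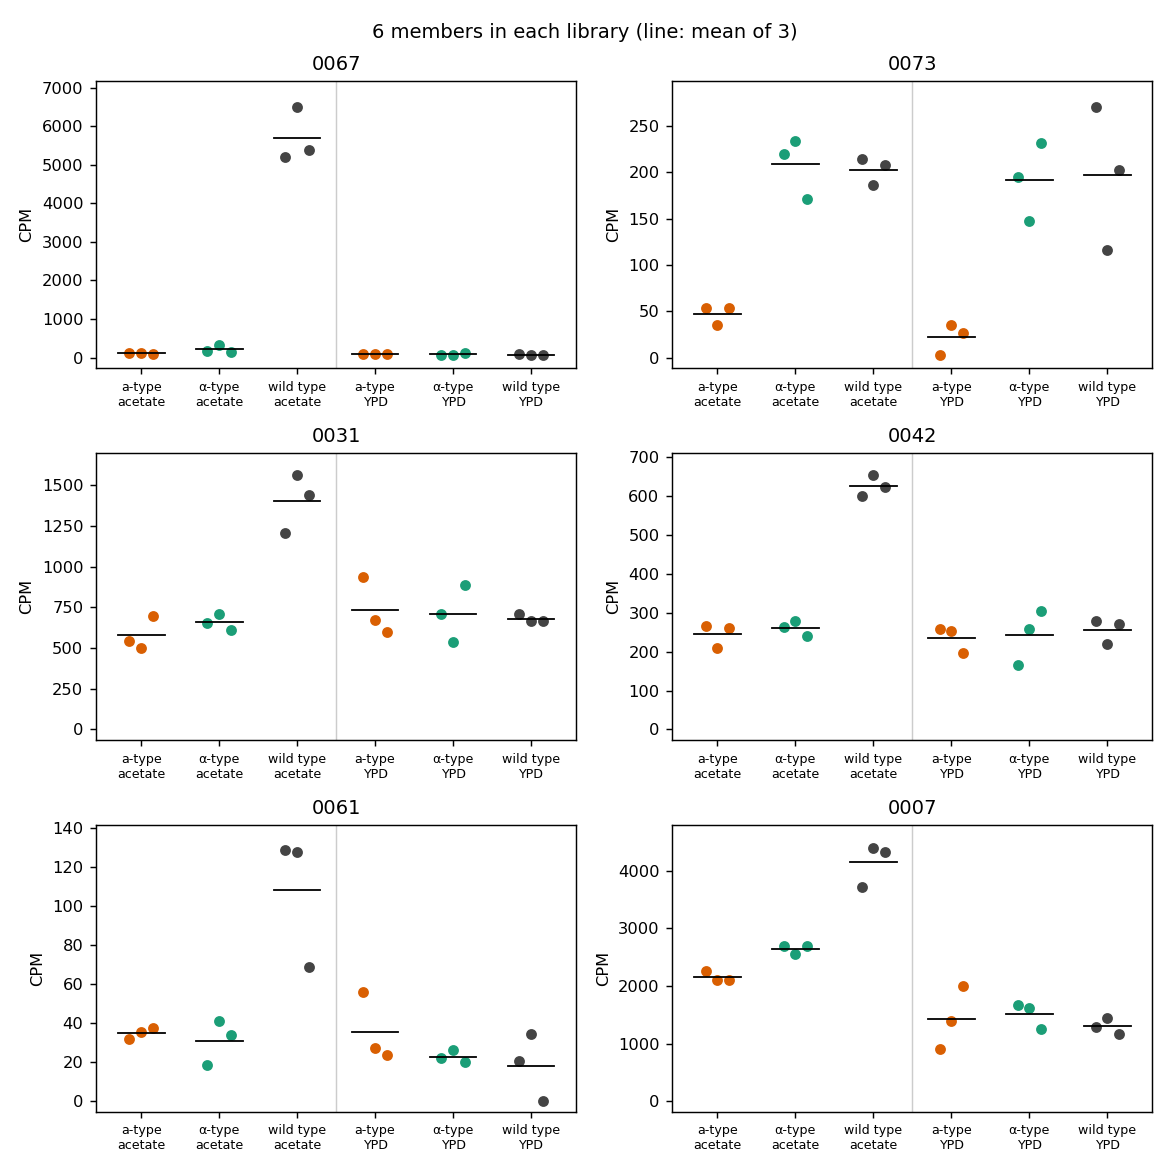
CPM of 6 members in every library, with 1 point per library, 3 libraries per group and a bar at the group mean; each panel has its own axis, which includes 0. Acetate wild type stands above all other groups for 0067, 0042 and 0031, and 0073 is low in a-type in both media.

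Between media, the range changed about as often as the rest of the genome. Of the 66 members, 26 differed between acetate and YPD in a-type, 14 higher and 12 lower, which is 39.4% against 39.5% of all features tested (20.3% higher and 19.2% lower). In α-type 27 differed, 15 higher and 12 lower, which is 40.9% against 42% of all features (22.4% higher and 19.6% lower). In wild type 35 differed, 22 higher and 13 lower, which is 53% against 48.9% of all features (25.6% higher and 23.3% lower). The median log2 fold change in a-type was 0.14 for the members and -0.01 for all features. In α-type it was 0.14 for the members and 0.05 for all features, and in wild type 0.36 for the members and 0.03 for all features. Another scaling of the libraries, by upper quartile, moved the median of all features in wild type by -0.18, and the members' median was then 0.18.

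Of the members, 9 were higher in acetate in all 3 strains, 13.6% against 14% of all features, and 12 were lower in all 3, 18.2% against 12.3% of all features. None (0 of 66) was higher in 1 strain and lower in another, against 0.544% of all features. The members lower in all strains included 2 runs of neighbours, 0012 to 0014 and 0053 to 0055, which were singled out after their values were seen. A call was made in at least 1 strain for 39 members, 59.1% against 63.1% of all features.

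Feature 0009 fell most, by the fitted fold in each strain. It had 27.6, 25.4 and 33.1 CPM for a-type, 12.9, 18.6 and 30.96 for α-type, and 18.8, 9.12 and 15.7 CPM for wild type in acetate, against 215 to 467 CPM in the 9 YPD libraries. All acetate libraries were far below all YPD libraries. The log2 fold change was -3.37 in a-type (SE 0.35, edgeR adjusted p = 3.93e-08), -3.97 in α-type (SE 0.36, edgeR adjusted p = 4.27e-09) and -4.55 in wild type (SE 0.38, edgeR adjusted p = 7.88e-10).

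Other members low in acetate were 0014, 0054, 0038 and 0012. Feature 0014 had 79.1 to 134 CPM in the 9 acetate libraries, against 220 to 476 CPM in the 9 YPD libraries, and fell by 2.12 on the log2 scale in a-type. Feature 0054 had 55.05 to 104 CPM in acetate, against 193 to 286 CPM in YPD, and fell by 1.88 in a-type and 1.87 in α-type. Feature 0038 had 35.8 to 64.9 CPM in acetate, against 125 to 318 CPM in YPD, and fell by 2.55 in α-type and 1.92 in wild type. The acetate and YPD libraries did not overlap for these features. Feature 0012 had 32.9 to 70.5 CPM in acetate, against 81.8 to 355 CPM in YPD, with a log2 fold change of -2.504 in wild type. The highly expressed feature 0044 was also lower, with 1032 to 1306 CPM in acetate and 1535 to 2133 CPM in YPD, and log2 fold changes of -0.64 in a-type, -0.82 in α-type and -0.60 in wild type. The highest edgeR adjusted p among the values of this paragraph was 0.0078.

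Feature 0025 rose in every strain. Its acetate libraries ran from 636 to 914 CPM, against 87.7 to 301 CPM in YPD, with no overlap, and its log2 fold change was 2.02 in a-type, 2.33 in α-type and 2.52 in wild type. Feature 0029 had 63.2 to 120 CPM in acetate, against 16.5 to 31.4 CPM in YPD, and rose by 1.96 in a-type. Features 0020 and 0051 were among the largest rises by fold, 0020 by 3.36 in wild type (SE 0.71, edgeR adjusted p = 0.000359) and 0051 by 2.77 in α-type (SE 0.77, edgeR adjusted p = 0.00533) and 3.24 in wild type (SE 0.85, edgeR adjusted p = 0.00268). In wild type 0020 had 45.5, 49.3 and 27.5 CPM in acetate, against 3.43, 3.43 and 4.62 CPM in YPD. Feature 0051 had 45.5, 16.4 and 13.7 CPM in acetate, against 3.43, 3.43 and 0 CPM in YPD. The YPD values of both are below the worth of 3 counts. Without single libraries, the value of 0051 in α-type ran from 2.282 to 3.555, the latter without YPD α-type replicate 1. In wild type it ran from 2.461, without acetate wild-type replicate 1, to 3.559. Feature 0051 passed without any 1 of the 6 libraries of either strain.

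**Figure D5:**
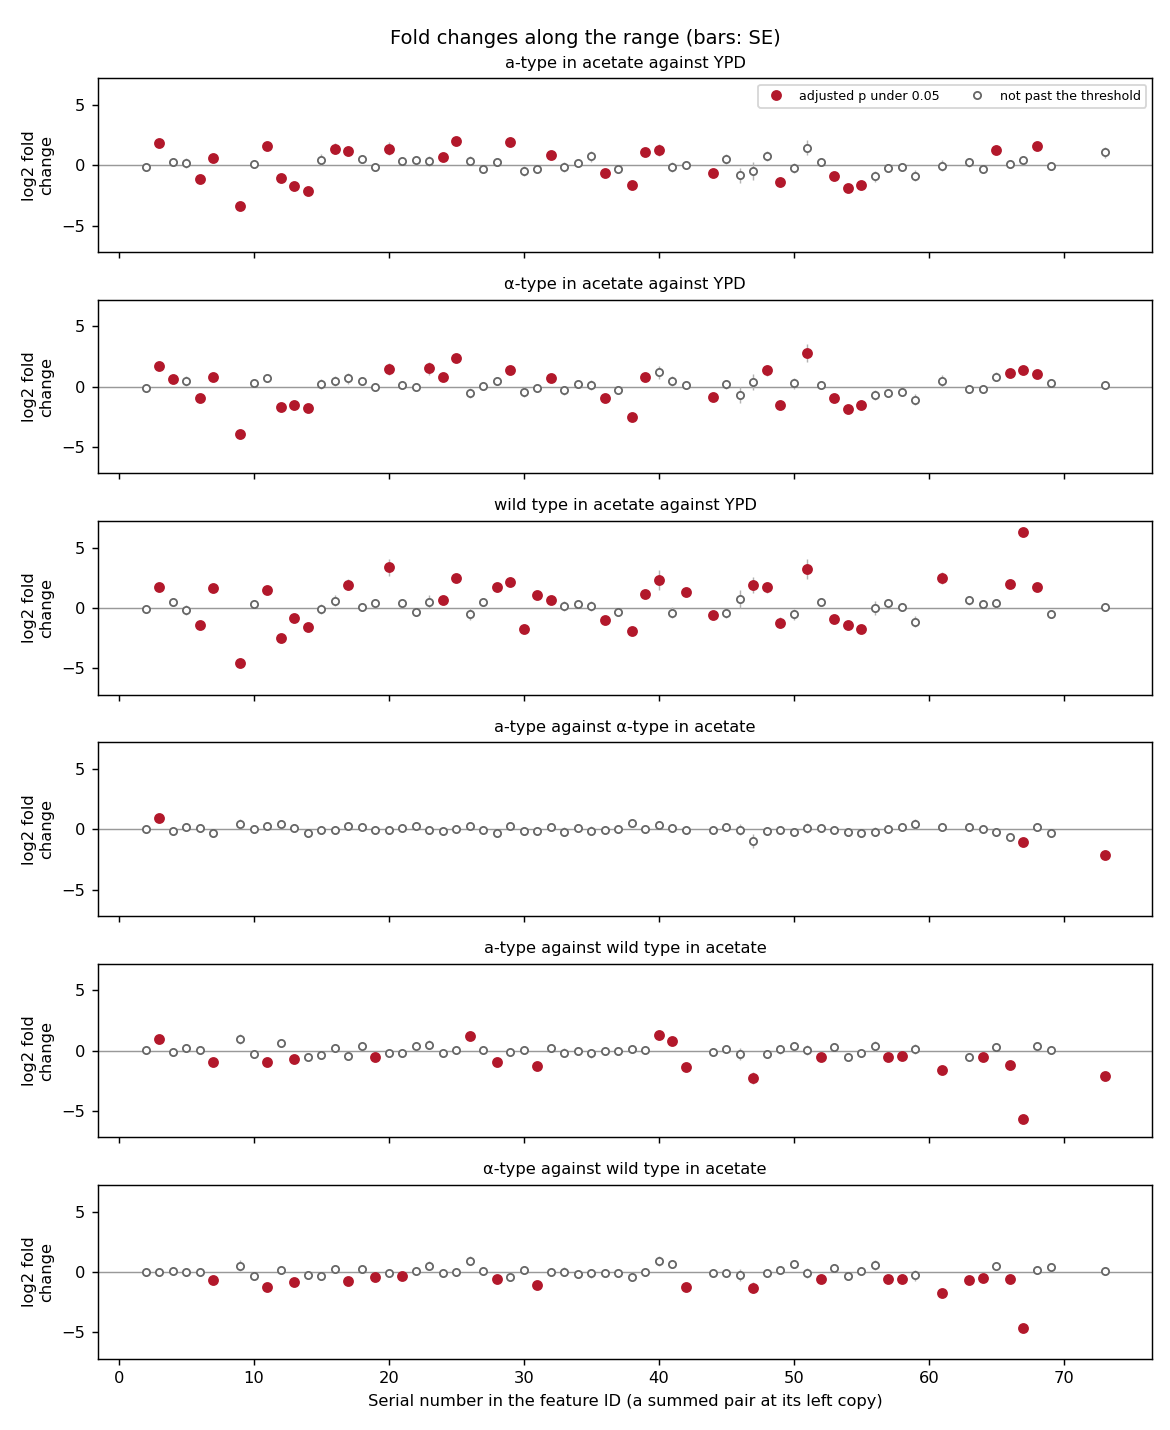
Log2 fold change with its standard error for each member by serial number, in the medium comparisons of a-type, α-type and wild type and in the strain comparisons in acetate; filled points passed the threshold. A summed pair stands at its left serial and 0001/0074 is left out because its fitted values against groups at 0 are no measure of size. Called members are spread along the range, and 0067 stands lowest against wild type in both heterothallic strains.

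In acetate the share of members that differed between a heterothallic strain and wild type was near that of all features. More were lower than higher, as among all features. Of the 66, 21 differed in a-type, 4 higher and 17 lower, which is 31.8% against 28.9% of all features tested. The lower ones are 25.8% of the members against 16.4% of all features, and the higher ones 6.06% against 12.5%. In α-type 19 differed, 0 higher and 19 lower, which is 28.8% against 26.1% of all features (15.3% lower and 10.8% higher). Under upper-quartile scaling, which moved the median of all features by 0.20 for a-type and 0.21 for α-type, the split became 10 higher and 14 lower in a-type and 5 higher and 13 lower in α-type. With all 18 libraries in 1 fit the counts fell to 13 for a-type and 6 for α-type. The share of all features called was not taken for these alternatives. In the main fits, 26.2% of the 65 tested features among the next 70 of the chromosome differed in a-type and 30.8% in α-type. Both comparisons use the same 3 wild-type libraries, so their values are given side by side and not as independent of each other.

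Features 0042 and 0031 followed 0067 in being highest in acetate wild type. Feature 0042, with 255 bases, had 266, 209 and 260 CPM for a-type, 264, 279 and 239 for α-type, and 600, 653 and 623 CPM for wild type in acetate, against 167 to 305 CPM in the 9 YPD libraries. Feature 0031 had 544, 501 and 696 CPM for a-type, 654, 709 and 608 for α-type, and 1207, 1564 and 1436 CPM for wild type in acetate, against 534 to 936 CPM in YPD. For both, the acetate wild-type libraries lay above all the others and the heterothallic acetate libraries lay within or near the YPD values.

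In acetate 0042 was lower than in wild type by a log2 fold change of -1.34 in a-type (SE 0.14, edgeR adjusted p = 1.5e-12) and -1.25 in α-type (SE 0.14, edgeR adjusted p = 1.55e-11). For 0031 the values were -1.26 in a-type (SE 0.13, edgeR adjusted p = 1.73e-13) and -1.08 in α-type (SE 0.12, edgeR adjusted p = 3.67e-11). Wild type rose in acetate over YPD by 1.28 for 0042 (SE 0.23, edgeR adjusted p = 6.89e-05) and by 1.04 for 0031 (SE 0.22, edgeR adjusted p = 0.000418). The responses in a-type and α-type were 0.05 and 0.11 for 0042 and -0.34 and -0.11 for 0031, none of which passed.

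Features 0061, 0066 and 0047 were also lower in both strains. Feature 0061 had 32.0, 35.3 and 37.4 CPM for a-type, 18.6, 40.9 and 33.8 for α-type, and 129, 128 and 68.7 CPM for wild type in acetate (log2 fold change -1.63 in a-type and -1.78 in α-type). Feature 0066, the neighbour of 0067, had 50.9, 50.8 and 48.9 CPM for a-type, 82.9, 76.9 and 73.2 for α-type, and 122, 124 and 106 CPM for wild type (a log2 fold change of -1.22 in a-type and -0.59 in α-type). Feature 0047 had 4.36, 8.47 and 7.19 CPM for a-type, 25.7, 11.2 and 2.81 for α-type, and 34.5, 32.9 and 31.4 CPM for wild type (a log2 fold change of -2.26 in a-type and -1.31 in α-type). None of these groups overlapped wild type, and the highest edgeR adjusted p was 0.0391. Without the acetate wild-type libraries, 0047 would not have passed the low-count filter. Its p-values against that group therefore add no support beyond the counts themselves. Several values of 0047 were near the worth of 3 counts, and its value in α-type ran from -2.165 without acetate α-type replicate 1 to -0.83 without α-type replicate 3. The α-type call of 0047 was lost without each compared library other than α-type replicate 1 (edgeR adjusted p of 0.0596 to 0.235), and that of 0066 without any 1 of the 6 (edgeR adjusted p of 0.0555 to 0.135). Both α-type calls were also lost with upper-quartile scaling and with all 18 libraries in 1 fit, and that of 0047 with DESeq2 (adjusted p = 0.0661).

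Feature 0007 had 2256, 2104 and 2106 CPM for a-type, 2687, 2547 and 2687 for α-type, and 3713, 4396 and 4327 CPM for wild type. It was lower than in wild type by -0.93 in a-type (SE 0.10, edgeR adjusted p = 6.97e-12) and by -0.64 in α-type (SE 0.10, edgeR adjusted p = 4.39e-07). Features 0011, 0013, 0019, 0028, 0052, 0057, 0058 and 0064 were lower in both strains as well, by -0.41 to -0.94 in a-type and by -0.45 to -1.21 in α-type. In α-type 0017, 0021 and 0063 were lower by -0.74, -0.32 and -0.70. Single libraries decided some of these small changes. In a-type, calls were lost for 0052 without wild-type replicate 2, for 0058 without wild-type replicate 2 or a-type replicate 2 or 3, and for 0064 without wild-type replicate 3 (edgeR adjusted p of 0.057 to 0.0983). In α-type, calls were lost for 0017 without wild-type replicate 2 or α-type replicate 3, for 0021 without wild-type replicate 2 or α-type replicate 2 or 3, for 0063 without α-type replicate 1 or 3, and for 0064 without wild-type or α-type replicate 3 (edgeR adjusted p of 0.0565 to 0.239). The same calls were lost with upper-quartile scaling and with all 18 libraries in 1 fit. That fit also lost the calls of 0013, 0019 and 0057 in a-type (edgeR adjusted p of 0.0517 to 0.218) and of 0007, 0013, 0019, 0028, 0052, 0057 and 0058 in α-type (edgeR adjusted p of 0.0631 to 0.249). For 0017 the libraries of α-type, from 73.2 to 128 CPM, overlapped those of wild type, from 127 to 190 CPM.

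The members higher in a-type than in wild type in acetate were 0003/0072, given above, and 0026, 0040 and 0041. Feature 0026 had 37.8, 45.2 and 37.4 CPM in a-type, against 18.8, 18.2 and 13.7 CPM in wild type (a log2 fold change of 1.24, SE 0.38, edgeR adjusted p = 0.00816). Feature 0040 had 36.4, 32.5 and 30.2 CPM in a-type, against 15.7, 14.6 and 9.82 CPM in wild type (a log2 fold change of 1.28, SE 0.41, edgeR adjusted p = 0.0132). Feature 0041 had 46.6, 69.2 and 76.2 CPM in a-type, against 37.7, 32.9 and 39.3 CPM in wild type (a log2 fold change of 0.81, SE 0.29, edgeR adjusted p = 0.0261). The groups did not overlap for any of them, and all had low counts. Without the acetate a-type libraries, 0040 would not have passed the low-count filter. Its p-value therefore adds no support beyond the counts themselves. The call of 0040 was lost without wild-type replicate 3 (edgeR adjusted p = 0.0644), and that of 0041 without wild-type replicate 2 or a-type replicate 2 or 3 (edgeR adjusted p of 0.0836 to 0.136). Both calls were lost with all 18 libraries in 1 fit (edgeR adjusted p = 0.0529 for 0040 and 0.218 for 0041), and that of 0041 with DESeq2 (adjusted p = 0.0579).

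The heterothallic strains differed from each other in acetate at 3 members, 0003/0072, 0067 and 0073, which is 4.55% of the range against 1.13% of all features tested. Of the 3, 1 was higher in a-type, against 0.293% of all features, and 2 were lower, against 0.837%. The median difference was 0.00 over the members and 0.00 over all features. In YPD, 0073 was the 1 member that differed when a-type was set against α-type, and again against wild type, with 0.0628% of all features called in each comparison. For α-type against wild type in YPD edgeR called 0 members, with 3 at an unadjusted p under 0.05, DESeq2 called 0 as well, and 0.0209% of all features passed.

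The response to acetate was compared between strains as an interaction. Against wild type, 6 members responded differently in a-type, all with a lower response, which is 9.09% of the range against 6.86% of all features tested (5.08% lower and 1.78% higher). They were 0067, 0061 (-2.48, SE 0.71, edgeR adjusted p = 0.0329), 0066 (-1.87, SE 0.44, edgeR adjusted p = 0.00851), 0031 (-1.39, edgeR adjusted p = 0.00588), 0042 (-1.23, edgeR adjusted p = 0.0213) and 0007 (-1.08, edgeR adjusted p = 0.0372). In α-type 3 members did so, 4.55% against 4.14% of all features (3.41% lower and 0.732% higher), namely 0067, 0042 (-1.18, SE 0.33, edgeR adjusted p = 0.0392) and 0031 (-1.16, SE 0.31, edgeR adjusted p = 0.0333). Feature 0067 passed without any 1 of the 12 libraries compared in both, and 0066 and 0031 did so in a-type. In a-type, 0061 was lost without each library other than YPD wild-type replicate 2, YPD a-type replicates 2 and 3 and acetate wild-type replicate 3 (edgeR adjusted p of 0.0539 to 0.108), 0007 without each other than YPD wild-type replicate 2, YPD a-type replicates 1 and 2 and acetate wild-type replicate 1 (0.055 to 0.116), and 0042 without replicate 2 of acetate a-type or wild type (0.056 to 0.0734). In α-type, 0042 was lost without each library other than YPD wild-type replicate 3 and YPD α-type replicate 1 (edgeR adjusted p of 0.0507 to 0.12), and 0031 without each other than YPD wild-type replicates 2 and 3, YPD α-type replicate 2 and acetate wild-type replicate 1 (0.0521 to 0.101). With upper-quartile scaling, the calls of 0007 and 0042 in a-type (edgeR adjusted p = 0.0682 and 0.051) and of 0042 and 0031 in α-type (edgeR adjusted p = 0.11 and 0.0983) were lost, and with only the 12 libraries of a-type and wild type those of 0061 and 0007 (edgeR adjusted p = 0.0515 and 0.0724). The value of 0061 was -3.228 without YPD wild-type replicate 2. The count in a-type fell to 3 without acetate wild-type replicate 2 or acetate a-type replicate 2, and the count in α-type fell to 1 without YPD wild-type replicate 1, YPD α-type replicate 3, acetate wild-type replicate 2 or 3, or any acetate α-type replicate. Between the heterothallic strains edgeR called 0 of the 66 responses different, with 2 at an unadjusted p under 0.05, DESeq2 called 0 as well, and 0.146% of all features passed.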

How the data were processed

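For each library the authors deposited a kallisto table that lists 5341 features with an estimated count and a TPM value, per the file headers. The submitters' processing notes name kallisto, SAMtools, DESeq2, TopHat2, Trim Galore 0.4.2 and FastQC 0.11.2 without a role. No genome build is given in the sources used here. Levels per length are the deposited TPM. The 9 whole-series tables were not used.

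The 4 mirrored pairs were summed and the deposited estimated counts rounded to whole numbers. They were tested with edgeR 4.0.16 in R 4.3.3, with filterByExpr, TMM scaling, quasi-likelihood tests and Benjamini-Hochberg adjustment over the 4779 features kept, all 66 members among them. Strain comparisons used the 9 libraries of a medium, and medium comparisons and interactions used all 18. CPM values use TMM-scaled library sizes. A fold against a group at 0 is a bound against 3 counts over the group, on unscaled library totals. It takes the level of the other group as exact. Standard errors were derived from the log2 fold change and the F statistic of its test, not taken from the fit itself. The 95% intervals of differences were built from these standard errors with a t distribution. Since 99.9% of feature lengths were multiples of 3, they are called coding lengths.

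The members, the pairs and the lists were chosen with earlier results of these data known. Members named were the pairs and other outermost 6 serials at each end, all called in strain comparisons, the 3 largest rises and falls in each medium comparison and in each difference in response, the 5 highest by TPM, and any at 0 in a whole group; the other called responses were named after their values were seen. No replicate repeated another: chi-square over degrees of freedom ran from 2.05 to 13.1 between replicates. The tests were checked on simulated counts. Alternatives were upper-quartile scaling, DESeq2 size factors, no filter, unsummed pairs, DESeq2 1.42.0, a replicate block, other libraries in the fit, and each replicate left out.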

Additional observations from a re-analysis of the deposited data

Results flagged for a closer look

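For some members a test of the interaction gave a different response to acetate in a heterothallic strain than in wild type. All values are log2 differences in response, heterothallic strain minus wild type. In a-type they were -5.86 for 0067, -2.48 for 0061, -1.87 for 0066, -1.39 for 0031, -1.23 for 0042 and -1.08 for 0007. In α-type they were -4.91 for 0067, -1.18 for 0042 and -1.16 for 0031. When single libraries were left out, the value for 0067 stayed between -5.95 and -5.77 in a-type and between -5.37 and -4.59 in α-type, whereas 0061 ran from -3.23 to -2.01 in a-type and missed the threshold in 8 of 12 fits. In α-type, 0042 missed it in 10 of 12 such fits and 0031 in 8.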

How the results depend on the processing

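The depth of the YPD libraries and their spread limit what could be called there. Same-numbered libraries were not paired in the main tests. Their deviations from the group mean correlated at -0.06 to 0.06 across media (0 of 9 over 0.1). The correlations were -0.18 to 0.05 within acetate (0 of 9 over 0.1) and -0.32 to 0.25 within YPD (3 of 9). With 3 libraries per group, such correlations cannot tell whether same-numbered libraries came from the same culture. With the replicate block, the calls of 0073 in YPD were lost, so that 0 members differed from α-type there and 0 from wild type, and 3 responses differed from wild type for a-type and 1 for α-type. The responses lost were 0066, 0042 and 0007 in a-type (edgeR adjusted p = 0.0503, 0.0741 and 0.108) and 0042 and 0031 in α-type (0.133 and 0.117), and the acetate α-type calls of 0021 and 0066 against wild type and the α-type rise of 0004/0071 were lost too (0.0712, 0.0527 and 0.0655). With all 18 libraries in 1 fit, the strain differences in acetate were 1 for a-type against α-type, 13 for a-type against wild type and 6 for α-type against wild type. The differences in response between α-type and wild type were 1 with upper-quartile scaling and 5 with only the 12 libraries of these strains. The cause was not tested. Without single replicates, members called between acetate and YPD numbered 21 to 23 in a-type, 22 to 26 in α-type and 32 to 35 in wild type. Acetate strain differences numbered 2 to 3 for a-type against α-type, 18 to 23 for a-type against wild type and 14 to 18 for α-type against wild type. In YPD they numbered 0 in each fit for a-type against α-type and for α-type against wild type, and 0 to 1 for a-type against wild type. Differences in response numbered 0 in each fit for a-type against α-type, 3 to 7 for a-type against wild type and 1 to 3 for α-type against wild type. The share of all features called was not taken for these alternatives. Whether members lost calls more often than other features cannot be read from these counts.

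Values of pairs that changed sign were all uncalled. For 0004/0071, a-type minus wild type in acetate was 0.098 with upper-quartile scaling. With DESeq2 size factors, no filter and DESeq2, in that order, α-type minus wild type in acetate was -0.006, -0.004 and -0.007 for 0003/0072 and -0.02, -0.017 and -0.023 for 0005/0070, and the same difference in response was -0.011, -0.016 and -0.02 for 0003/0072 (-0.034 with only the 12 libraries). For 0005/0070 in acetate it was -0.003 with the replicate block and -0.015 with all 18 libraries, and for 0003/0072 in YPD -0.018 with upper-quartile scaling and -0.003 with all 18 libraries. Without single replicates, acetate over YPD for 0005/0070 ran from -0.239 to 0.804 in a-type and from -0.546 to 0.252 in wild type. For α-type minus wild type the ranges were -0.082 to 0.112 (0003/0072), -0.036 to 0.124 (0004/0071) and -0.128 to 0.149 (0005/0070) in acetate, -0.134 to 0.186 (0003/0072) and -0.262 to 0.199 (0004/0071) in YPD, and -0.18 to 0.163 (0003/0072) and -0.162 to 0.317 (0004/0071) in response. For a-type minus α-type they were -0.064 to 0.397 (0004/0071) and -0.105 to 0.865 (0005/0070) in YPD, and -0.054 to 0.208 (0003/0072) and -0.641 to 0.334 (0005/0070) in response. For a-type minus wild type they were -0.748 to 0.33 (0005/0070) in YPD, and -0.074 to 0.256 (0003/0072) and -0.121 to 0.995 (0005/0070) in response.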
